A study of Mus musculus with 2 samples.

Results

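HOX genes are homeodomain transcription factors that lie in 4 chromosomal clusters, A to D, and this account follows the 5 of them, Hoxa3, Hoxb2, Hoxc5, Hoxc10 and Hoxd9, that were named as members from the platform annotation. A probe set, the group of short probes that reads 1 transcript on the array, was taken where the annotation kept by GEO gave it exactly 1 gene symbol and that symbol was a member. This gave 6 probe sets for 5 genes, of 10581 probe sets with 1 symbol for 7542 genes on the array. The table held 2 further HOX genes, Hoxa9 and Hoxd8, and these are described beside the members. The 5 members are the HOX genes that reached the floor defined below, so that their passing it is no finding.

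The samples were 2 clones of mouse mesoangioblasts, D16 and D351, each read on 1 U74B expression array from total RNA. Mesoangioblasts are progenitor cells associated with vessels that can give rise to several mesodermal tissues. Both clones came from C57BL6 embryos at day 9.5, in which the dorsal aorta was explanted for 5 days, and single cells were then cloned in RPMI with 20% fetal calf serum on mitomycin C-treated primary embryonic fibroblasts. After about 1 week growing clones were moved to gelatin-coated dishes and expanded there. Neither clone carried a treatment or an engineered allele in the labels, and each stands for 1 clone. The labels do not say which stretch of the aorta was taken, nor from how many embryos. There are no replicates, so every difference below is between 2 RNA samples, with no error and no p-value.

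In the embryo the HOX genes are switched on in the order in which they lie along a cluster. Genes at one end of each cluster (low paralogue numbers, such as Hoxb2 and Hoxa3) are active up to the hindbrain and neck region, and genes at the other end (Hoxd9, Hoxc10) only in the trunk and tail. Paralogues are genes of the same number in different clusters, and cells cultured from the body wall, vessels or skin can keep part of the HOX pattern of the place they came from. HOX proteins bind DNA together with cofactors of the TALE class (Pbx, Meis and Pknox proteins), retinoic acid and Cdx factors set their early expression, and Polycomb and Trithorax proteins keep them off or on.

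Promoter sequences were available for 2 of the members, Hoxd9, which was higher in D351, and Hoxa3, which was higher in D16. They are shown because these are the members of opposite direction with a window in the RefSeq table of build GRCm38.p6. Each runs 5′ to 3′ on the gene's strand from 250 bases before to 50 after the annotated start, at chr2:74697513-74697812 on the plus strand for Hoxd9 and at chr6:52213018-52213317 on the minus strand for Hoxa3. Capitals mark TAAT, the core that homeodomains bind, as read on either strand.
Hoxd9: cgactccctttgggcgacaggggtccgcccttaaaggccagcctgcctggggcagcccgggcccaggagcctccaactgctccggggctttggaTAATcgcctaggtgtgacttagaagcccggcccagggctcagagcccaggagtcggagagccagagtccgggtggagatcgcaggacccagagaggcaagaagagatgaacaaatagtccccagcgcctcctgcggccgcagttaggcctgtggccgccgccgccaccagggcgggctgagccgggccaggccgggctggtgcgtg
Hoxa3: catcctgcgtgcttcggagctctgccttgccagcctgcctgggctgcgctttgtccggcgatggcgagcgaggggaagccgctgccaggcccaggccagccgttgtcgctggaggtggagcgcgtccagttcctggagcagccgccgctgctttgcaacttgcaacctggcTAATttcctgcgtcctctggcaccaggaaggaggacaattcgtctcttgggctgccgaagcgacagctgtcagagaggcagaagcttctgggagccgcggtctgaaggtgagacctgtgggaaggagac

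Each window held 1 TAAT, its first base at position -156 from the start in Hoxd9 and -79 in Hoxa3. Of 32851 windows of the same length in the table, 58.0% held TAAT on either strand, so the match is a common one. TGATNNAT, a joint site of Pbx and HOX proteins (8.85% of all windows), AGGTCA, a motif of retinoic acid receptors (16.3%), TATAAA (13.6%) and CCAAT (37.4%) were searched on both strands and were not in either window. Both windows were rich in CG pairs, with 20 each against a median of 7 over all windows. The Hoxa3 window lies between those of Hoxa6 and Hoxa7 in the table, so it belongs to a start far from the coding part of Hoxa3. Which start was used in these cells was not measured.

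The deposited values are intensities on a linear scale. Values below 16.8, the 50th percentile over both arrays without controls, were set to that floor, and log2 ratios of D351 over D16 were formed afterwards. Where 1 clone was under the floor the ratio is a bound, and with both under it none is given. The size rule asks for a difference of at least 2-fold. No level is set against that of another gene, because probe sets differ in how strongly they bind.

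Hoxb2 and Hoxc5 were higher in D351 past the size rule, Hoxd9 reached the floor in D351 alone, Hoxa3 was higher in D16 short of 2-fold, and Hoxc10 was close to equal. Hoxb2, the most anterior member, acts in hindbrain and neural crest patterning. It read 50.3 in D16 and 171.9 in D351, a 3.42-fold difference (log2 1.77) with both arrays above the floor. Of 4916 measured genes, 120 (2.44%) had a ratio at or above it. Hoxa3 is needed for the thymus, parathyroid and neck vessels. It read 87.9 in D16 and 49.2 in D351, a log2 ratio of -0.84 or 1.79-fold, so the clone with the lower Hoxb2 signal had the higher Hoxa3 signal. Among the measured genes 593 (12.1%) had a ratio at or below that of Hoxa3. Hoxb2 in D351 and Hoxa3 in D16 were the only HOX signals above the pooled 75th percentile of 53.5.

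Hoxc5, of the paralogue group that marks the neck and upper trunk, read 14.3 in D16 and 37.7 in D351 on its brighter probe set, a difference of at least 2.24-fold (log2 at least 1.17). Its other probe set read 6.9 and 13.9, under the floor on both arrays and so without a ratio, but also with the higher signal in D351. Hoxd9, a gene of the trunk and of the limb, read 1.6 in D16 and 33.4 in D351. With D16 raised to the floor its log2 ratio was at least 0.99 (1.99-fold), just outside the size rule, which with D16 at the floor needs a D351 signal of 33.6. Hoxc5 lies just inside that rule. With the floor at the 25th percentile (4.6), the log2 ratio of Hoxd9 was at least 2.86, so the size of its difference is set by the floor and only its direction is given here. Hoxc10, which acts in the lumbar region and hind limb, read 23.1 in D16 and 18.8 in D351 (log2 -0.30), near the floor on both arrays. Among the measured genes 1628 (33.1%) had a ratio at or below that of Hoxc10.

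The spread that the arrays do allow is that between probe sets of the same gene. Over 1113 genes with at least 2 measured probe sets it came to an SD of 0.50 log2 units per probe set, which covers probe design but not differences between cultures. It is pooled over genes of any brightness, so it may not hold for dim ones. The log2 ratio of Hoxc10 is smaller than this SD, and those of Hoxa3 and Hoxb2 are larger. Those of Hoxc5 and Hoxd9 are bounds that depend on the floor, so they are not set against it. Of the members only Hoxc5 had another probe set, and it gave no ratio, so each member's ratio rests on 1 probe set. All 6 probe sets of the members have the plain ending _at, used for designs meant to be specific for 1 transcript.

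**Figure D1:**
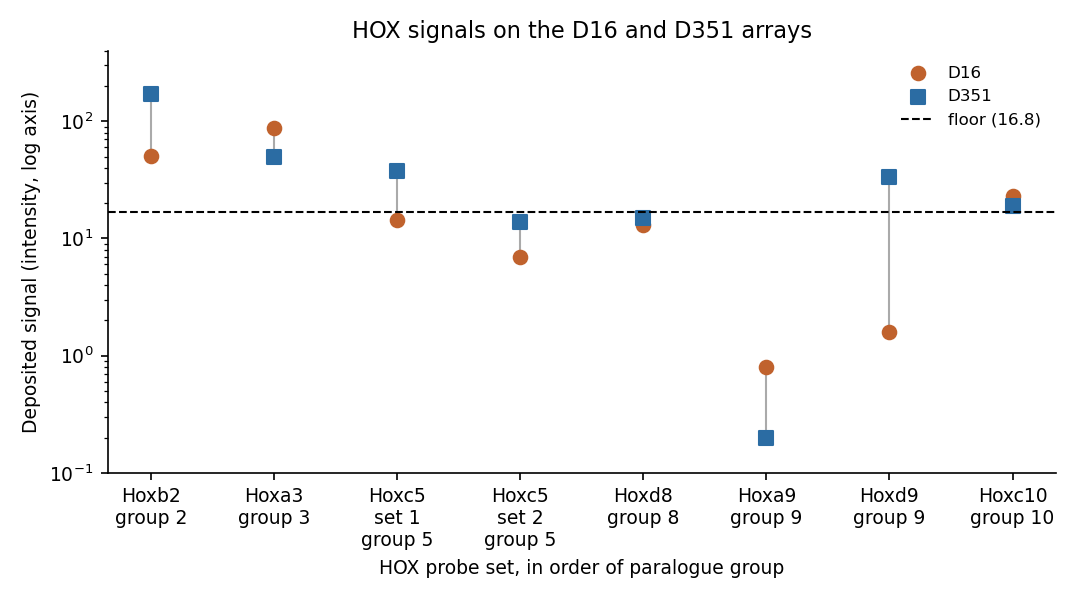
Deposited signals (intensity, log axis) of the 8 HOX probe sets on the array, in order of paralogue group, with circles for D16, squares for D351 and a dashed line at the floor of 16.8. Hoxb2, Hoxc5 and Hoxd9 have the D351 signal on top, Hoxa3 and Hoxc10 the D16 signal, and both probe set 2 of Hoxc5 and the probe sets of Hoxd8 and Hoxa9 lie under the floor on both arrays.

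The HOX genes outside the members stayed under the floor in both clones. Hoxa9, a regulator of blood progenitors and of the trunk, read 0.8 in D16 and 0.2 in D351. It is the paralogue of Hoxd9, which reached the floor in D351. Hoxd8, next to Hoxd9 in cluster D, was read by an _i probe set, without the plain ending of the members, at 13.1 in D16 and 14.9 in D351. Hoxd3os1, an antisense transcript of cluster D that is not a HOX gene, read 0.4 and 0.3. In all 5 of 7 HOX genes reached the floor on at least 1 array, beside 65.2% of all named genes, and 2 did so in D351 alone, beside 5.79% of all named genes. No HOX gene reached it in D16 alone, beside 5.49%.

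By cluster, the genes with a probe set were 2 of 11 genes of cluster A, 1 of 10 of cluster B, 2 of 9 of cluster C and 2 of 9 of cluster D. The 2 members of cluster C differed in ratio, since Hoxc5 was higher in D351 and Hoxc10 was close to equal. By paralogue group, the 7 genes fell into 6 of 13 groups (2, 3, 5, 8, 9 and 10), and genes of the other 7 groups, among them the most anterior and the most posterior, were not analysed here. A further probe set, annotated to a HOX gene together with a second gene, was not used.

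Along the axial order the direction changed sign more than once. Each group with a ratio was read by 1 gene, and successive genes lay in different clusters. Group, cluster and probe set therefore cannot be told apart. The log2 ratio was 1.77 at group 2 (Hoxb2), -0.84 at group 3 (Hoxa3), at least 1.17 at group 5 (Hoxc5), at least 0.99 at group 9 (Hoxd9) and -0.30 at group 10 (Hoxc10). Neither clone had the higher signal at both anterior members, Hoxb2 and Hoxa3. Of the posterior members Hoxd9 was higher in D351. Hoxc10 lay near the floor with a ratio smaller than the probe set SD, so it gives no clear direction. The 3 members higher in D351 are of groups 2, 5 and 9. The 2 higher in D16 are groups 3 and 10, the latter only slightly. Both clones had signals above the floor for an anterior pair (Hoxb2 and Hoxa3) and for the posterior gene Hoxc10, while the floor was reached in D351 alone for Hoxc5 and Hoxd9. No sample of known position along the aorta was measured, so the signals place neither clone along it.

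Counted together, 2 of 5 measured HOX genes passed the 2-fold rule, both higher in D351, and 0 were at least 2-fold higher in D16. Among all 4916 measured genes 18.1% passed it, 9.5% towards D351 and 8.58% towards D16. For genes as dim as Hoxc5, Hoxd9 and Hoxc10, with the brighter array under 53.5, the shares were 5.58% and 4.15%. The median log2 ratio of the 5 genes was 0.99, against -0.01 for all measured genes, and 3 of 5 were above 0 against 48.8%. The median is the bound of Hoxd9. Among the 3 members at the floor on both arrays it was -0.30, the value of Hoxc10, so the direction of the median rests on the 2 bounds. Hoxc5 and Hoxd9 count as measured only through D351, the array where they read higher. The counts of 2 of 5 and 3 of 5 include genes that entered in this way, so they show no shift of HOX genes as a set. The count was 1 of 2 with the floor at the 75th percentile (13.5% of measured genes) and 1 of 5 with a 3-fold rule (6.39%). It was 4 of 5 with a 1.5-fold rule (39.8%) or with each chromosome's median taken off (17%), when Hoxa3 and Hoxd9 passed too.

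**Figure D2:**
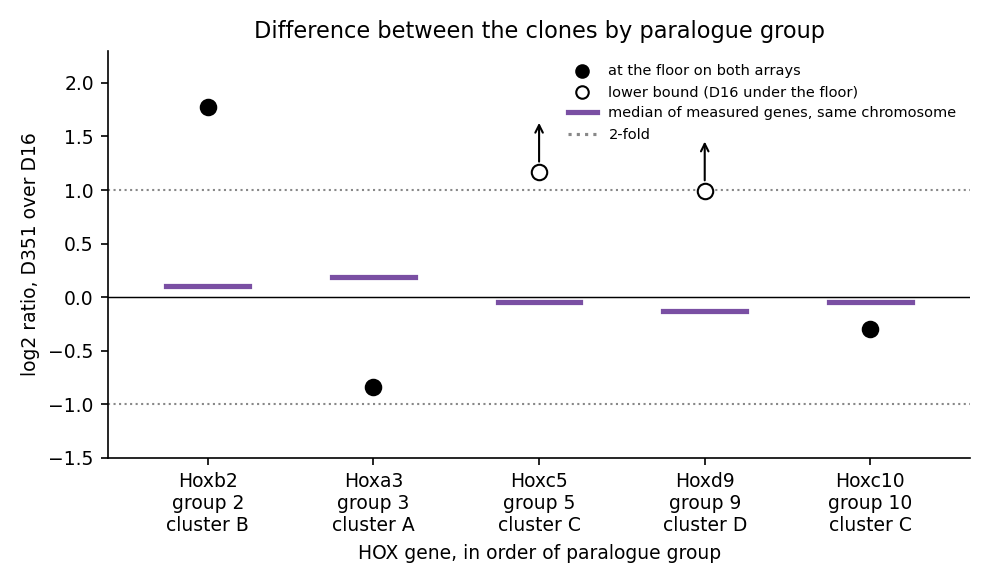
Log2 ratio of D351 over D16 for the 5 measured HOX genes in order of paralogue group, with filled points where both arrays reached the floor, open points with arrows for lower bounds, bars for the median of measured genes on the same chromosome and dotted lines at 2-fold. The sign changes between groups 2 and 3, 3 and 5, and 9 and 10, the last through Hoxc10, which lies near the floor. Each group is shown by 1 gene, so group and cluster cannot be told apart. The chromosome medians lie between -0.13 and 0.18.

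Gene medians differed between chromosomes on these arrays, so each member was set beside its own chromosome. The median log2 ratio was 0.18 on chromosome 6 (239 measured genes), which carries Hoxa3, and 0.11 on chromosome 11 (403 genes), which carries Hoxb2. It was -0.05 on chromosome 15 (214 genes), with Hoxc5 and Hoxc10, and -0.13 on chromosome 2 (392 genes), with Hoxd9. Relative to these medians the members stood at 1.67 (Hoxb2), -1.02 (Hoxa3), at least 1.22 (Hoxc5), at least 1.12 (Hoxd9) and -0.25 (Hoxc10). Each median was smaller in size than the member's own ratio, so taking it off could not have changed a direction.

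The nearest measured genes on each side of the clusters, up to 3 per side in RefSeq gene order, gave 22 genes. Of these 2 passed the size rule towards D351 and 3 towards D16, near the shares of all measured genes (9.5% and 8.58%). All 3 of the latter flank cluster A. Osbpl3, an oxysterol-binding protein, read 109.4 in D16 and 44.1 in D351 (2.48-fold), and Scrn1 read 138.7 and 39.7 (log2 -1.80, with -1.43 on another probe set). Chn2, a Rac GTPase-activating protein, read 123.2 and 43.9 (2.81-fold, on an _r probe set). With Mpp6 (-0.88), Tril (at most -0.09) and Ccdc126 (0.10), the 6 genes around cluster A had a median log2 ratio of -1.10, on a chromosome whose median was above 0. Hoxa3, at -0.84, therefore went the same way as 5 of these 6 genes. They are not close, since between 28 and 59 positions in the RefSeq gene order separate them from the outermost HOX genes.

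The 6 genes around cluster B had a median of -0.12 beside 1.77 for Hoxb2, and the nearest of them, Ttll6, a tubulin polyglutamylase 2 positions away, read 21.3 in D16 and 13.5 in D351. Osbpl7, 27 positions away on the other side, was at least 2.58-fold higher in D351. Around cluster C, Calcoco1, a coactivator 4 positions away, was 2.13-fold higher in D351 (50.2 against 106.8), and Cbx5, which encodes the heterochromatin protein HP1 alpha, read 98.6 and 55.3 (-0.83). The 4 genes there had a median of -0.18, beside -0.30 for Hoxc10 and at least 1.17 for Hoxc5. Around cluster D 0 of 6 genes passed 2-fold and the median was -0.11, beside at least 0.99 for Hoxd9. Whether these surroundings play a part in the HOX differences was not tested.

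**Figure D3:**
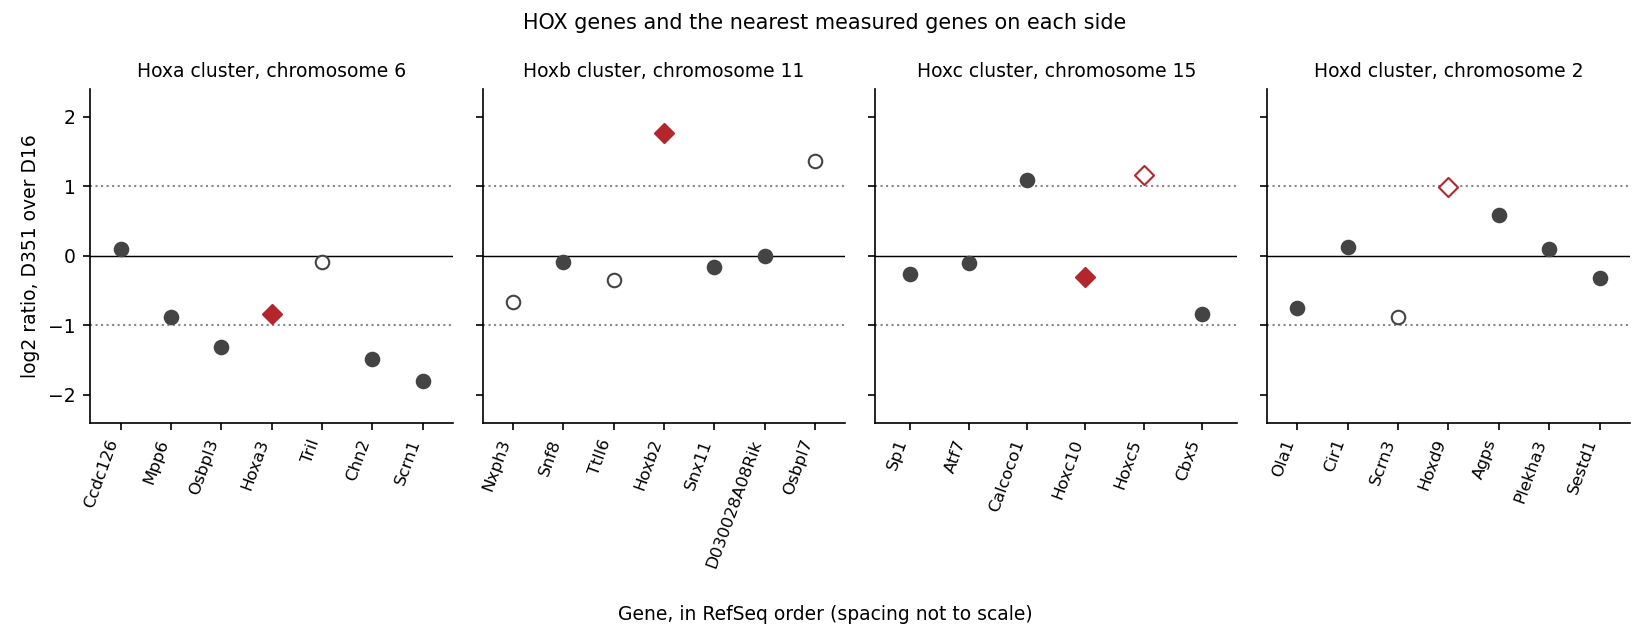
Log2 ratio of D351 over D16 for the measured HOX genes (diamonds) and the nearest measured genes on each side (circles), in RefSeq gene order for each cluster, with open symbols for bounds and dotted lines at 2-fold. In cluster A Hoxa3 and 5 of 6 flanking genes lie under 0, while the points of Hoxb2 (1.77) and Hoxd9 (at least 0.99) lie above the points of all flanking genes of their clusters.

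Of the TALE cofactors the array held Pknox1, Pknox2 and Pbx4. Pknox1 read 41.8 in D16 and 72.6 in D351 (log2 0.80), but its other probe set gave -0.23. Pknox2 read 51.1 and 52.2 (log2 0.03), and Pbx4 was under the floor on both arrays (7.6 and 8.5). None of these passed 2-fold, and the Meis genes were not analysed here.

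Of the genes listed for the retinoic acid pathway, 5 of 6 on the array were measured. Rdh10, which makes retinaldehyde in the embryo, was 2.38-fold higher in D16 (637.3 against 267.6), and its other probe sets gave -1.22 and -0.73. The coactivator Ncoa1 was 2.26-fold higher in D351 (29.4 against 66.4). Ncoa3, another coactivator, read 19.5 in D16 and 35.3 in D351 (log2 0.86), but its other probe set gave -0.38. The receptors Rara (346.8 and 356.6) and Rxra (68.0 and 124.4) did not pass 2-fold, and Rarb was under the floor on both arrays. Upstream regulators of axial HOX expression were represented by 3 measured genes of 5, of which 0 passed 2-fold. Gdf11, a ligand that sets the trunk-to-tail transition, read 29.7 and 49.1 (0.73), Lef1 34.6 and 65.6 (0.92), and Nr6a1, which acts in trunk formation, 23.7 and 21.2 (-0.16). Lin28a and Sall4 were under the floor on both arrays, and the Cdx genes were not analysed here.

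Polycomb genes, whose products keep HOX genes silent, had 13 of 18 measured members and a median log2 ratio of -0.03. Past the size rule were 2 towards D351 and 0 towards D16, beside 9.5% and 8.58% of all measured genes. The 2 were Phc3 (85.4 and 252.3, 2.95-fold) and Cbx6 (101.3 and 239.9, 2.37-fold, with 0.56 on another probe set). Pcgf5 read 33.2 and 66.3, just short of the rule (log2 1.00). Trithorax genes, whose products keep HOX genes active, had 9 of 11 measured members and a median of 0.46. Of the 9, 8 were above 0, beside 48.8% of all measured genes, and only 1 passed 2-fold in each direction. Kmt2e was 2.20-fold higher in D351, with 0.04 on another probe set, and Paxip1 was 2.61-fold higher in D16. Over all 7 regulator, homeobox and mesoderm lists, 8 of 46 measured genes passed 2-fold towards D351 and 7 towards D16, beside 9.5% and 8.58% of all measured genes, and their median was 0.45 beside -0.01.

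Because 2 arrays give each gene a single ratio, likeness to a HOX gene could be ranked only by that ratio, among the 4 non-HOX homeobox genes at the floor on both arrays. The nearest to Hoxb2 was Prrx1, a factor of limb and connective tissue mesenchyme, which read 149.3 in D16 and 546.8 in D351 (log2 1.87, and 1.30 for its other probe set), followed by Zeb2 (0.65). Nearest to Hoxa3 was Irx1 (-1.53, 0.69 away), followed by Zfhx3 (0.45). Nearest to Hoxc10 was Zfhx3 (0.75 away), followed by Zeb2. Only the first of these pairs, Hoxb2 and Prrx1, was closer than the probe set SD of 0.50.

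Prrx1 is also among the markers of embryonic fibroblasts, the cells of the feeder layer. Of 16 such markers 6 were on the array and all 6 were measured. In total 5 passed the size rule towards D351 and 1 (Tcf4) towards D16, beside 9.5% and 8.58% of all measured genes. The signals of the 6 markers summed to 997.2 in D16 and 2454.2 in D351, with 0 of them at 0 on either array. Bright probe sets weigh most in such a sum, and Sfrp1 alone read 48.2 in D16 and 900.3 in D351. The 5 thus moved in the same direction as Hoxb2, Hoxc5 and Hoxd9, and the part of these markers in the HOX difference was not tested. The 2 limb bud mesenchyme markers on the array were Prrx1, already among the fibroblast markers, and Tbx5. Prrx1 read 149.3 in D16 and 546.8 in D351, and Tbx5 read 7.0 and 49.0. Of 6 neural markers on the array 2 were measured, and both went the other way. Map2 read 173 in D16 and 8.4 in D351, and Nefl read 39.9 and 0.9. Elavl3, Elavl4, Nefm and Olig2 were under the floor on both arrays. Cells of another type and a different level per cell cannot be told apart in bulk RNA.

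**Figure D4:**
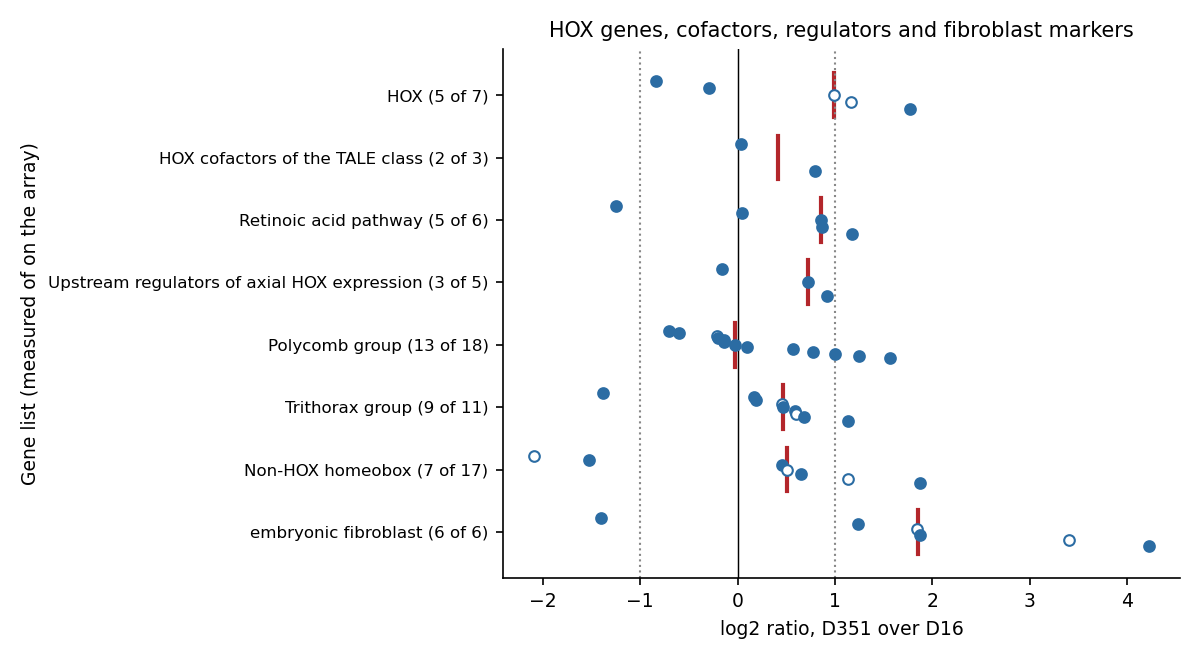
Log2 ratio of D351 over D16 for measured genes of the HOX list, the cofactor, regulator and homeobox lists and the fibroblast markers, with filled points where both arrays reached the floor, open points for bounds, bars for list medians and dotted lines at 2-fold. The HOX genes lie on both sides of 0, the Polycomb median is at -0.03, and 5 of 6 fibroblast markers lie past 2-fold towards D351.

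Of 12 markers of mesoangioblasts 3 were on the array. Cd44 read 1164.5 in D16 and 1092.5 in D351, Cspg4 83.3 and 26.1, and Flt1 10.3 and 44.5, and the defining markers Cd34, Kdr, Ly6a and Thy1 were not analysed here, so the labelled cell type could not be checked in full. The arrays themselves were alike in scale. Signals summed to 653854 in D16 and 646285 in D351, with medians of 16.7 and 16.9 over probe sets other than controls.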

How the data were processed

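Intensity values of 2 U74B arrays, 1 per clone, were used as the authors deposited them, linear and 1 per probe set. Software, background correction and presence calls are not given in the sources used here. After trimming 2% at each end the array means were 39.8 and 39.7, which fits a scaling to a shared target, a step the sources do not state. Of 12477 probe sets 66 were controls. Of the others 10581 had 1 gene symbol, 178 several and 1652 none. Identifiers of 10550 matched RefSeq genes of GRCm38.p6, which gave gene order and, for 2 members, promoter windows with their coordinates. The array values name no build.

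The probe set with the highest mean signal stood for a gene. The ratio rule was run on simulated arrays with known changes larger than 2-fold, placed only in probe sets brighter than Hoxc5, Hoxd9 and Hoxc10. That run therefore says nothing on ratios near the floor or close to 2-fold. With 1 array per clone there is no test. The members and lists were chosen with earlier results of these data known. Genes were named by a rule: all HOX genes and TALE cofactors, up to 6 genes past 2-fold from each other list, the 3 nearest measured genes on each side of a cluster, and the 2 homeobox genes of nearest ratio. Genes short of 2-fold, under the floor or among the markers were named after their values were seen. Alternatives were other scalings (common median, quantile, loess with span 0.3), floors, size rules and probe set choices. Python 3.11.15, numpy 2.4.6, pandas 2.3.3, statsmodels 0.14.6 and matplotlib 3.10.9 were used.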

Additional observations from a re-analysis of the deposited data

How the results depend on the processing

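Of 73 recomputed values 62 moved by less than the probe set SD of 0.50 log2 units or, for counts, by no more than 1.5 times, and 11 moved further. Some of the 62 could not move, so their number is no measure of stability. Each member's ratio rests on 1 plain probe set, so the probe set choices returned the same ratio. A lower floor likewise could not change Hoxa3, Hoxb2 or Hoxc10. Over all settings the log2 ratio ranged from 1.67 to 1.79 for Hoxb2 and from -0.34 to -0.25 for Hoxc10. For Hoxa3 it ranged from -1.02 to at most -0.72, the latter a bound with D351 under the floor at the 75th percentile. For Hoxc5 it ranged from at least 1.14 to 1.40, the latter with both arrays above the floor at the 25th percentile. The bound of Hoxd9 ranged from 0.96 to 2.86, the latter with that floor too. With the floor at the 75th percentile 2 HOX genes reached it (Hoxa3 and Hoxb2, the others giving no value) and 1 passed 2-fold. At that floor 7 genes of the other lists passed in place of 15. The HOX median of 0.48 there came from 2 bounds, at least 1.68 (Hoxb2) and at most -0.72 (Hoxa3). It therefore has no defined size or sign. With only the genes that reached the floor in both clones the HOX median was -0.30. The 1.5-fold and 3-fold rules gave 4 and 1 HOX genes and 27 and 5 genes of the other lists. Taking off chromosome medians, a setting chosen after seeing the data, gave 4 HOX genes. No paired analysis was possible because each clone had 1 array. Dim signals limit Hoxc5, Hoxd9 and Hoxc10, all under 53.5 on both arrays.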

Other observations

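Other transcription factors with restricted positions in the embryo also differed between the clones, in both directions. Irx1 and Irx2, Iroquois homeobox genes, were higher in D16. Irx1, on an _f probe set, had a signal of 349.4 in D16 and 121.4 in D351 (log2 -1.53, and -2.01 for its other probe set), and Irx2 read 71.6 and 15.1, at least 4.26-fold higher in D16. Irx5 was under the floor on both arrays (7.1 and 5.8). Both odd-skipped genes were higher in D16 as well. Osr1, which marks intermediate mesoderm and the kidney field, read 281.9 and 61.5 (4.58-fold), and Osr2 read 45.5 and 4.3 (at least 2.71-fold).

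Among the 8 measured mesoderm factors 3 passed 2-fold towards D351 and 3 towards D16, beside 9.5% and 8.58% of all measured genes. Hand2, of heart, branchial arch and limb mesenchyme, read 18.0 in D16 and 128.2 in D351. Tbx5, of the heart and forelimb, read 7.0 and 49.0, at least 2.92-fold higher in D351, while Gata4, of heart and lateral mesoderm, read 54.3 and 0.5, at least 3.23-fold higher in D16. Zhx2, a zinc finger homeobox gene, was at least 2.20-fold higher in D351.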
